A study of Danio rerio with 2 samples.

Results

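The muscle bordering the wound was compared between the hearts of 2 adult zebrafish, 1 taken 3 days after cryoinjury of the ventricle (3 dpi) and 1 taken at 7 dpi. Cryoinjury kills part of the ventricular wall by freezing, and the zebrafish heart replaces that wall with new muscle. Each heart, labelled WT, with no transgene or drug in its labels, had been cut into 12 µm cryosections from the injury toward the uninjured remote myocardium. The messenger RNA of every section was barcoded and amplified by CEL-seq, which counts transcript 3′ ends. The border muscle was sections 11 to 19 of the 3 dpi heart and sections 30 to 32 of the 7 dpi heart, 12 of 78 sections in all (9 of 40 and 3 of 38). These sections were chosen on measured values, as muscle next to the wound with a like level of contractile transcripts, so that level is a description of the choice and not a result. The pool is called border muscle here, with myl7 and nppb as its markers. The marker nppb set the pool apart from the muscle beyond it at 3 dpi only. At 7 dpi nppb was lower in the pool than beyond it, as given below. The name of the 7 dpi pool thus rests on its position and contractile level, and not on nppb. Each ventricle was embedded unfixed and cut without sorting cells, so a section holds every cell type at that depth.

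Each day is 1 heart, so the differences below describe these 2 hearts, no test between days was possible, and day and heart cannot be told apart. The sections of a heart are neighbouring slices of 1 organ and not replicates. Counts were summed over the sections of a pool and scaled to counts per 1000000 counts (CPM). The 3 dpi pool held 907354 counts and the 7 dpi pool 514753, of which section 32 gave 77.3%, so pooled 7 dpi values rest mainly on that section. Sections held 44092 to 143583 counts at 3 dpi and 35778, 81271 and 397704 at 7 dpi. A gene was compared when it had a row in both deposited tables and at least 50 counts in 1 pool, which gave 1899 of 14452 genes, 1660 of them with a symbol. A compared gene under 50 counts at 7 dpi entered through the 3 dpi pool only and could not be called higher. One under 50 counts at 3 dpi entered through the 7 dpi pool only and could not be called lower. Intervals beside ratios are exact 95% intervals for the ratio of 2 Poisson counts and cover counting error only. Symbols are written as the name table gives them, and where several zebrafish genes share one, the Ensembl ID is added.

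Border cardiomyocytes of the regenerating zebrafish heart are known to re-enter the cell cycle. As background, these cells take their sarcomeres partly apart, lower the energy metabolism of the adult muscle cell and switch on stress and fetal genes, among them the natriuretic peptide genes nppa and nppb. Macrophages clear the wound in the same days, and endocardium and epicardium respond to the injury and invade or cover the lesion.

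The contractile transcripts, summed over 30 gene rows, made up 30798 to 58468 CPM in the 3 dpi sections and 30941, 37344 and 36919 CPM in sections 30, 31 and 32. The 7 dpi sections thus lay in the lower part of the 3 dpi range, near sections 11 to 13, and below sections 14 to 19. Wound sections of the 7 dpi heart held at most 17496 CPM and section 34, the only deeply read section beyond the border pool of that heart, 64019 CPM. The cardiac myosin light chain gene myl7 (listed as MYL7) stood at 2923, 6269.7 and 10656 CPM in its lowest, median and highest 3 dpi section. It stood at 3019, 5279 and 4365 CPM in sections 30, 31 and 32. These values overlapped. The second marker, nppb, was present in every section and is given below. Its presence alone does not mark the border, since nppb was also counted beyond it in both hearts. The pooled level of myl7 was 6347 and 4416 CPM at 3 and 7 dpi, a ratio of 0.696 (95% interval 0.662 to 0.731), so a ratio relative to myl7 is the CPM ratio divided by that value. With 3 dpi sections 11 to 13 alone the ratio of myl7 was 1.275. Values relative to myl7 below thus depend on which 3 dpi sections are pooled. Leukocyte transcripts came to 4603 to 11453 CPM in the 3 dpi sections and 7407, 4971 and 3528 CPM in sections 30, 31 and 32. In whole sections, fewer cells of a type and less RNA per cell cannot be told apart.

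**Figure D1:**
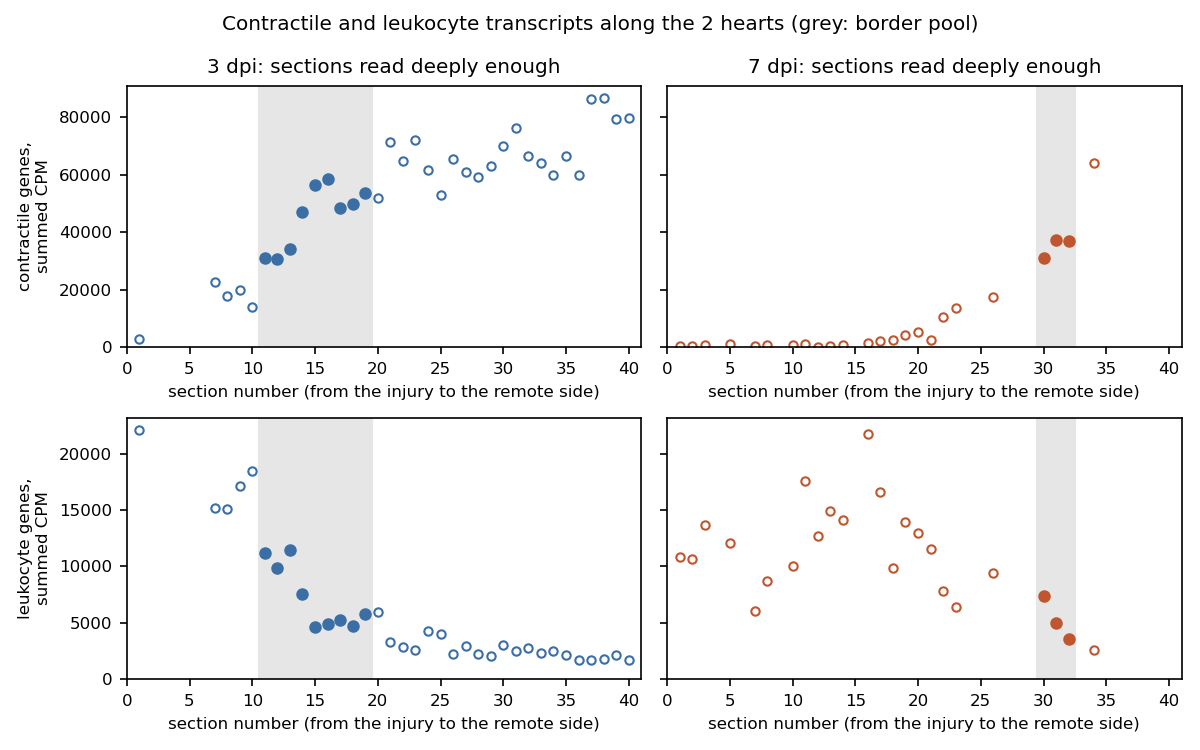
Summed CPM of contractile genes (top) and leukocyte genes (bottom) against section number from the injury to the remote side, for the deeply read sections of the 3 dpi (left) and 7 dpi heart (right). Filled points in the grey band are the border pools: contractile transcripts reached 30798 to 58468 CPM at 3 dpi and 30941 to 37344 CPM at 7 dpi, and in both hearts leukocyte transcripts were lower in the border pools than at their highest in the wound.

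Of the 1899 compared genes, 410 (21.6%) were at least 2-fold higher in the 7 dpi border and 549 (28.9%) at least 2-fold lower. The median log2 ratio over all compared genes was -0.36, and the medians of gene groups below are to be read against it. For 236 genes (12.4%) the higher level at 7 dpi was at least 2-fold and every 7 dpi section lay above every 3 dpi section, and for 228 (12.0%) the reverse held. Counts of group members with sections apart below are to be read against these shares. Relative to myl7 the numbers were 554 (29.2%) higher and 290 (15.3%) lower, and with median-of-ratios size factors they were 504 and 369, so the balance of directions depends on the scaling. Higher genes made up 42.8% of the calls by CPM, 65.6% relative to myl7 and 57.7% with size factors. Scaling to myl7 moves every log2 ratio and the median of all genes up by the same amount, to a median of 0.17. That upward shift belongs to the full 3 dpi pool. With 3 dpi sections 11 to 13 the myl7 ratio was 1.275, and scaling to it would move ratios down. Group counts relative to myl7 below are thus to be read against 29.2% higher and 15.3% lower. With only sections 11 to 13 of the 3 dpi heart, whose contractile level is nearest to that of the 7 dpi sections, 415 were higher and 590 lower, of which 374 and 459 were among the genes above. That choice of sections was added after the data were seen.

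Many of these differences were shared by other regions of the same 2 hearts. Wound tissue (20 sections at 7 dpi against 5 on the injury side at 3 dpi) differed at least 2-fold in the same direction for 319 of the 410 higher and 421 of the 549 lower genes. Muscle beyond the border (section 34 at 7 dpi against sections 20 to 40 at 3 dpi) did so for 368 and 305. All 3 regions differed alike for 308 higher and 262 lower genes. The border alone passed 2-fold for 31 higher and 85 lower genes. Over all compared genes the median log2 ratio was -0.58 in wound tissue and 0.01 beyond the border. How many of all compared genes passed 2-fold in those regions was not counted, so these overlaps have no background beside them. No test of the difference between regions was possible, and section 34 lies only a pair of slices beyond section 32. The medians of most gene groups in wound tissue and beyond the border are given below, and those of single genes for a selection.

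**Figure D2:**
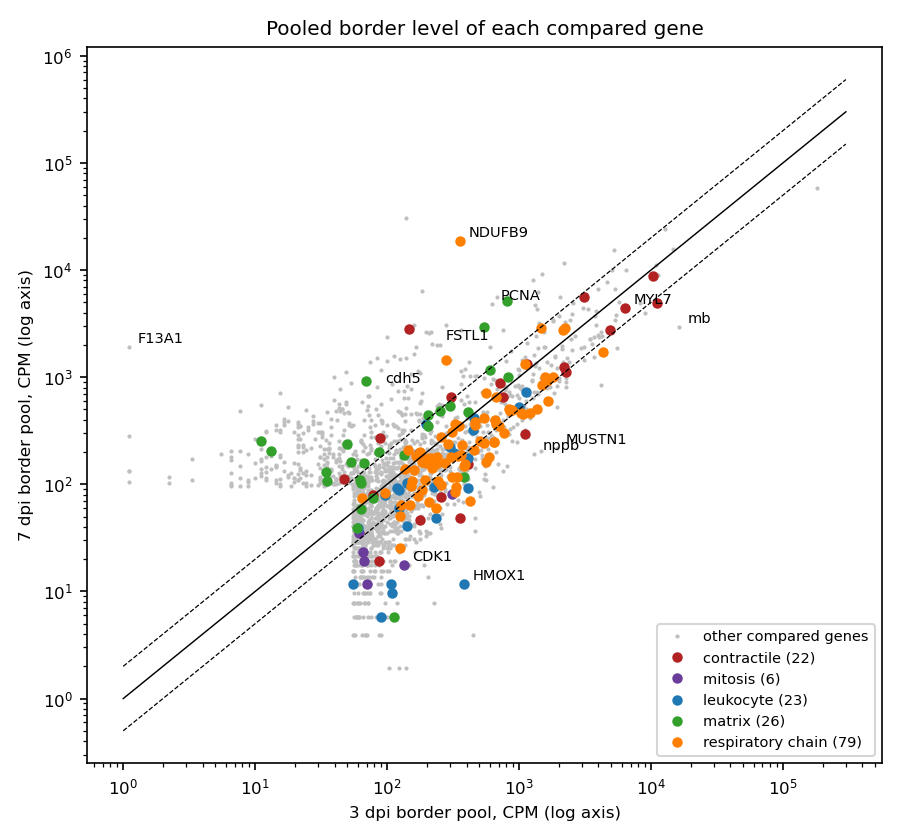
Pooled CPM of each compared gene in the 3 dpi border (x) against the 7 dpi border (y), both on log axes, with 5 gene groups in colour and the number of compared members in the key. The solid line marks equal levels and the dashed lines 2-fold differences, and genes with no count at 7 dpi are drawn at 3 counts: nppb, MUSTN1, mb, CDK1 and HMOX1 lie below the lower dashed line, and NDUFB9, PCNA, FSTL1, cdh5 and F13A1 above the upper one.

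Of the stress genes of border cardiomyocytes, a subset that was high at 3 dpi stood several-fold lower at 7 dpi. The natriuretic peptide gene nppb held 944, 1188 and 1818 CPM in its lowest, median and highest 3 dpi section and 475, 197 and 163 CPM in sections 30, 31 and 32. Every 7 dpi section was below every 3 dpi section, and section 30, the slice nearest the wound, was the highest of the 7 dpi sections. Pooled, nppb was 6.84-fold lower at 7 dpi (95% interval 5.57 to 8.5) and 4.76-fold lower relative to myl7. Its neighbour in function nppa, the atrial natriuretic peptide gene, named here after its values were seen, held 1308, 2191 and 2698 CPM at 3 dpi and 866, 2141 and 2985 CPM at 7 dpi. Its sections overlapped and the pooled ratio was 1.29 (95% interval 1.2 to 1.38), or 0.835 without section 32.

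MUSTN1, a small nuclear protein of muscle, ranged over 1428, 2004 and 2525 CPM at 3 dpi and stood at 139.8, 246 and 219 CPM at 7 dpi. It was 8.89-fold lower at 7 dpi (95% interval 7.34 to 10.9) with no overlap between sections, and 6.19-fold lower relative to myl7. HSPB1, a small heat shock chaperone of the sarcomere, went from 2839.5, 4102 and 5823 CPM to 894, 886 and 829.8 CPM, again without overlap. Its pooled level was 4.97-fold lower at 7 dpi (95% interval 4.5 to 5.5). SYNPO2L, a Z-disc protein that binds actin, was 5.2-fold lower with overlapping sections, and 3.01-fold lower without section 32.

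Other genes of the stress group went the other way. ANKRD1, a titin-binding repressor induced in stretched cardiomyocytes, was 4.45-fold higher, at 23.1 and 103 CPM, and XIRP2, an actin-binding protein of intercalated discs, was 3.68-fold higher, at 37.5 and 138 CPM. Both depend on section 32: without it the ratios were 1.85 and 1.14. Leaving out 3 dpi section 11 moved the ANKRD1 ratio by more than 1.5 times as well, to 7.41. The actin-sequestering peptide gene tmsb4x had the highest CPM of those named here, at 12789.9 and 23932 CPM, a ratio of 1.87 (95% interval 1.82 to 1.92). It passed 2-fold relative to myl7, at 2.69, and without section 32, at 2.22. In both hearts tmsb4x was highest nearest the wound, at 17030 to 22612 CPM in 3 dpi sections 11 to 13 and 32506 CPM in section 30. The summed stress group was also higher in wound tissue, at 34551 and 49298 CPM, than in the border, at 25508 and 30255 CPM. In the border tmsb4x alone gave 12789.9 of the 25508 CPM at 3 dpi and 23932 of the 30255 CPM at 7 dpi. The listed markers of stressed border cardiomyocytes, nppb among them and tmsb4x not, summed to 5608 CPM at 3 dpi and 3439 CPM at 7 dpi. Which cells held these transcripts was not tested. Over the group, 4 of the 17 compared members (23.5%) were at least 2-fold higher at 7 dpi, 6 (35.3%) at least 2-fold lower and 7 within 2-fold. These shares were not far from the 21.6% and 28.9% of all genes. The group's median log2 ratio was 0.22, against -1.94 in wound tissue and -0.40 beyond the border. Scaled to myl7, 6 were higher and 5 lower.

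**Figure D3:**
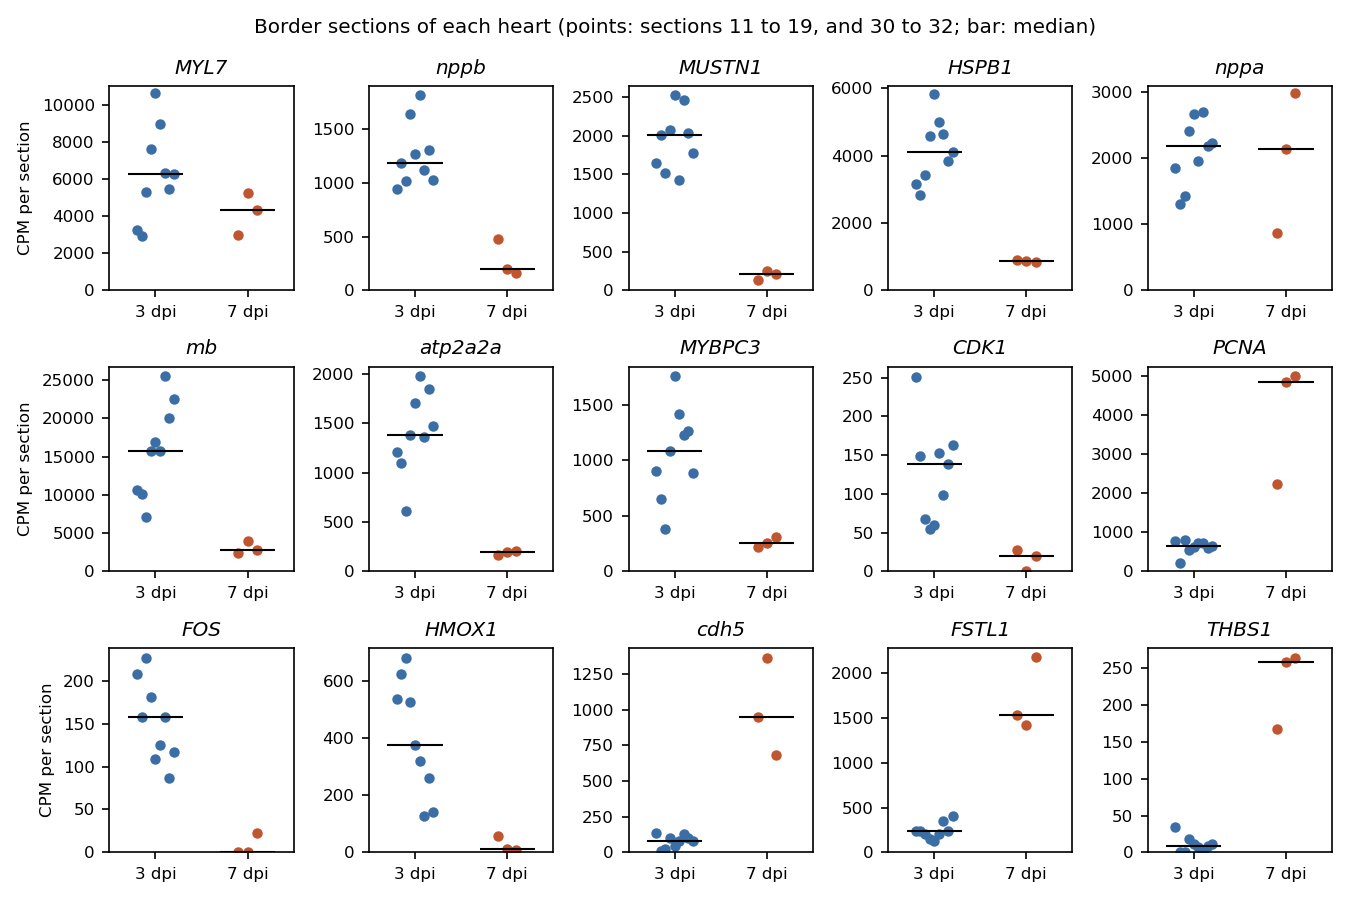
CPM of 15 genes in each border section, with the 9 sections of the 3 dpi heart in blue in section order, the 3 of the 7 dpi heart in orange and a bar at the median of each heart. Linear axes start at 0. MYL7 and nppa overlap between days, nppb, MUSTN1, HSPB1, mb, atp2a2a, MYBPC3, CDK1, FOS and HMOX1 are lower in every 7 dpi section, and PCNA, cdh5, FSTL1 and THBS1 are higher in every one.

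Among contractile genes, levels differed in both directions although their sum was used to choose the sections. MYBPC3, the gene of a thick filament protein that tunes cross-bridge cycling, held 386, 1083 and 1764 CPM at 3 dpi and 224, 258 and 312 CPM at 7 dpi, with no overlap, and was 3.73-fold lower at 7 dpi (95% interval 3.15 to 4.46). The titin-cap gene tcap was 4.48-fold lower at 87.1 and 19.4 CPM. Tropomyosin tpm4a, one of the 10 named genes with the highest CPM at 3 dpi, stood at 11195 and 4874 CPM and was 2.3-fold lower. Relative to myl7 its ratio was 0.626, and with 3 dpi sections 11 to 13 0.556, both within 2-fold. The essential light chain cmlc1 was within 2-fold at 10326 and 8822 CPM. Titin (TTN, ENSDARG00000000563) was 3.06-fold higher, while the second TTN gene (ENSDARG00000028213) stood at 758 and 653 CPM. Over the group, 4 of the 22 compared members (18.2%) were at least 2-fold higher at 7 dpi, 8 (36.4%) at least 2-fold lower and 10 within 2-fold. Among all genes the shares were 21.6% and 28.9%. The median log2 ratio was -0.38, turning to 0.15 relative to myl7. On that scale 5 were higher and 5 lower, beside 29.2% and 15.3% of all genes. In wound tissue the median was -2.11 and beyond the border -0.58, and in the wound the summed contractile level was 16395 CPM at 3 dpi and 4944 CPM at 7 dpi.

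The striated actin genes differed in opposite directions. An ACTA1 gene (ENSDARG00000036371) went from 72.2, 145 and 209.8 CPM at 3 dpi to 1845, 1907 and 3095 CPM at 7 dpi, and was 19.4-fold higher at 7 dpi (95% interval 16.2 to 23.4). The cardiac actin actc1a went from 113, 405 and 522 CPM to 0, 36.9 and 55.3 CPM and was 7.35-fold lower at 7 dpi (95% interval 4.89 to 11.5), or 13.9-fold lower without section 32. The second ACTA1 gene (ENSDARG00000055618) was 2.15-fold higher, but its ratio was 0.753 without section 32. As background, alpha-actin genes are closely alike in coding sequence. How reads were divided among them was not examined, so each single value is given as uncertain. Summed over the 5 alpha-actin genes, the level was 1076 CPM at 3 dpi and 4099 CPM at 7 dpi, a ratio of 3.81 (95% interval 3.53 to 4.12). Without section 32 the summed 7 dpi level was 2409 CPM and the ratio 2.24 (95% interval 1.96 to 2.56).

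Several calcium handling genes and myoglobin were lower in the 7 dpi border, while other members of their lists were within 2-fold or higher. The calcium pump of the sarcoplasmic reticulum, atp2a2a, held 612, 1381 and 1978 CPM at 3 dpi and 168, 197 and 211 CPM at 7 dpi. No section overlapped and the pooled level was 7.18-fold lower at 7 dpi (95% interval 5.89 to 8.83). Triadin, trdn, which anchors calsequestrin at the release channel, was 7.44-fold lower and at 7 dpi was counted in section 32 only. Calsequestrin itself, CASQ2, differed by less than 2-fold, at 225 and 183 CPM. The calmodulin gene calm1a was 5.84-fold lower, or 14.6-fold lower without section 32, and another, calm2a, 2.76-fold higher. Of the 7 compared calcium genes, 1 (14.3%) was at least 2-fold higher, 3 (42.9%) lower and 3 within 2-fold, against 21.6% and 28.9% of all genes. Scaled to myl7, 2 calcium genes were higher and 3 lower. Myoglobin, mb, the named gene with the highest CPM in the 3 dpi border, went from 7144, 15700.5 and 25566 CPM to 2348, 3999 and 2751 CPM and was 5.62-fold lower at 7 dpi (95% interval 5.33 to 5.93). The muscle creatine kinase ckma, which buffers ATP, stood at 3066 and 4453 CPM, within 2-fold by CPM and 2.09-fold higher relative to myl7. Of the 11 compared genes of creatine kinases, nucleotide carriers and myoglobin, 1 was higher and 3 (27.3%) lower, close to the 28.9% of all genes, and their median log2 ratio of -0.28 turned to 0.24 relative to myl7. SMPX, a small protein of the striated muscle costamere, and ppifb, a mitochondrial cyclophilin, were 12.5-fold lower and 9.6-fold lower. Without section 32, SMPX was 54.2-fold lower, on 1 count. For atp2a2a, mb, SMPX and ppifb the ratios beyond the border were also below 1, at 0.155, 0.216, 0.157 and 0.141, against 0.139, 0.178, 0.0797 and 0.104 in the border.

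Nuclear genes of the respiratory chain, which passes electrons to oxygen and drives ATP synthesis, were lower at 7 dpi far more often than higher. Of 79 compared subunit genes, 30 (38%) were at least 2-fold lower, against 28.9% of all genes, and 2 (2.53%) at least 2-fold higher, against 21.6%. The median log2 ratio was -0.81. Relative to myl7, 9 of 79 were lower, against 15.3% of all genes, so the excess of lower genes over the background was not seen on that scale, and 4 were higher, against 29.2%. The median was -1.46 in wound tissue and -0.74 beyond the border. Complex I genes led the lower side: NDUFS7 went from 232, 407 and 701 CPM to 55.9, 61.5 and 72.9 CPM and was 6.11-fold lower at 7 dpi (95% interval 4.34 to 8.86). NDUFS8, also of the hydrophilic arm, was 3.8-fold lower at 325 and 85.5 CPM, and NDUFA6 3.9-fold lower at 235 and 60.2 CPM. Sections of these 3 did not overlap.

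The exceptions were large. NDUFB9, a membrane arm subunit of complex I, went from 136, 290.0 and 653 CPM at 3 dpi to 10901, 21718 and 18617 CPM at 7 dpi and was 51.9-fold higher at 7 dpi (95% interval 46.4 to 58.1). It was 46.7-fold higher in wound tissue and 66.5-fold beyond the border, so the 2 hearts differed at this gene in all 3 regions. A COX5B gene (ENSDARG00000015978), for a subunit of cytochrome oxidase, was 5.11-fold higher, while the second COX5B (ENSDARG00000068738) stood at 508 and 256 CPM, just within 2-fold lower. The 30 lower respiratory genes all lay at least 2-fold lower in wound tissue too, and 25 of them beyond the border. Of all 549 lower genes, 421 did so in wound tissue and 305 beyond the border, so most of such overlap was general. In the wound pools the summed contractile level was also lower at 7 dpi, at 16395 and 4944 CPM, and the part of muscle content was not tested. Summed over all 94 respiratory rows, NDUFB9 included, the border held 47414 CPM at 3 dpi and 51417 CPM at 7 dpi.

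Transcripts of the mitochondrial genome, which encode core subunits of the same complexes, split by gene. MT-ND2 was 2.92-fold lower at 5487 and 1877 CPM and MT-ND3 2.53-fold lower at 2286 and 903 CPM. Both came within 2-fold with 3 dpi sections 11 to 13, at ratios of 0.517 and 0.549. MT-ND4 went from 3493, 5215 and 6106 CPM to 14171, 9499 and 16904 CPM, without overlap, and was 2.96-fold higher at 7 dpi (95% interval 2.86 to 3.07). MT-ND5 was 2.74-fold higher, or 4.32-fold higher without section 32, and mt-atp8 3.45-fold higher. The abundant MT-ATP6 and MT-CO2 were within 2-fold, at 14812 and 15689 CPM and 11234 and 9002 CPM. As background, all of them are encoded by one circular genome that is transcribed as long precursors. Of the 11 protein genes compared, 3 (27.3%) were at least 2-fold higher and 2 (18.2%) lower, against 21.6% and 28.9% of all genes. The median log2 ratio of -0.32 turned to 0.20 relative to myl7. It was -0.29 in wound tissue and 0.30 beyond the border. MT-ND3 was within 2-fold relative to myl7, at a ratio of 0.568.

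Genes of the citrate cycle and of fatty acid oxidation, the main fuel route of adult heart muscle, were lower in 12 of 29 cases and higher in 4, against 28.9% and 21.6% of all genes, with a median log2 ratio of -0.75. Those lower relative to myl7 were 6 and those higher 4, with a median of -0.23. The CPM median was -0.94 in wound tissue and -0.95 beyond the border. Fumarase, FH, was 3.04-fold lower at 118 and 38.9 CPM, and HADH, which oxidises hydroxyacyl-CoA, 3.89-fold lower at 159 and 40.8 CPM, or 6.19-fold lower without section 32. The fatty acid binding protein gene FABP3 went from 680.4, 1237 and 2354 CPM to 6289, 11185 and 9037 CPM, with no overlap, and was 6.17-fold higher at 7 dpi (95% interval 5.81 to 6.56). PDK2, which inhibits pyruvate dehydrogenase, was 4.41-fold higher at 46.3 and 204 CPM. In wound tissue PDK2 had a ratio of 0.547.

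Glycolytic genes showed no common direction: 3 of the 16 compared members (18.8%) were at least 2-fold higher at 7 dpi, 4 (25%) at least 2-fold lower and 9 within 2-fold. Both shares were near the 21.6% and 28.9% of all genes. Scaled to myl7, 3 were higher and 1 lower. The glycolytic mutase pgam1a went from 186, 233 and 387 CPM to 2040.4, 4269.7 and 2914 CPM and was 10.9-fold higher at 7 dpi (95% interval 9.56 to 12.5). SLC16A1, a carrier of lactate and pyruvate, was 9.84-fold higher at 7 dpi (95% interval 7.09 to 13.9), from 0, 27.1 and 104 CPM to 838, 566 and 412 CPM, and highest in section 30. HIF1A, the oxygen-regulated subunit of hypoxia-inducible factor, was 5.22-fold higher, 12.7-fold higher in wound tissue and 3.12-fold beyond the border. ALDOA (ENSDARG00000034470), an aldolase, was 2.33-fold lower, but within 2-fold relative to myl7, at a ratio of 0.618, and with 3 dpi sections 11 to 13, at 0.647.

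Of the mitosis genes with enough counts, 5 of 6 were at least 2-fold lower in the 7 dpi border, against 28.9% of all genes, and 4 were so relative to myl7, against 15.3%. Sections were apart for 3. Their median log2 ratio of -1.86 was the lowest of the groups with at least 3 compared members. It was -1.78 in wound tissue and -0.58 beyond the border. CDK1, the kinase that drives entry into mitosis, held 54.2, 138 and 251 CPM at 3 dpi and 27.9, 0 and 20.1 CPM at 7 dpi. It was 7.63-fold lower at 7 dpi (95% interval 3.89 to 17.1), or 15.6-fold lower, on 1 count, without section 32. The scaffold of the cleavage furrow, anln, was 6.05-fold lower at 70.5 and 11.7 CPM, the chromatin protein gene hmgb2b 3.82-fold lower at 312 and 81.6 CPM, and the mitotic kinase gene plk1 3.46-fold lower at 67.2 and 19.4 CPM. MAD2L1, of the spindle checkpoint, was 2.84-fold lower, with a ratio of 0.646 without section 32 and 0.507 relative to myl7. The counts were small: 121 and 9 for CDK1, 64 and 6 for anln and 61 and 10 for plk1. Summed over all 33 listed rows, without the count minimum, mitosis transcripts stood at 1379 CPM at 3 dpi and 453 CPM at 7 dpi. Sections held 1199 to 1585 CPM at 3 dpi and 419 to 492 CPM at 7 dpi.

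Replication genes split. The subunit of ribonucleotide reductase RRM2, which makes deoxynucleotides in S phase, was 5.79-fold lower at 7 dpi (95% interval 3.02 to 12.4) at 112 and 19.4 CPM, and DNA ligase LIG1 3.21-fold lower. PCNA, the sliding clamp of DNA polymerases, was 7.7-fold higher at 7 dpi (95% interval 7.02 to 8.45), from 223, 641 and 794 CPM to 2236, 4860.3 and 4996 CPM. It was 5.28-fold higher in wound tissue and 20.4-fold beyond the border. CDK2 was 11.9-fold higher on 11 and 74 counts, or 7.75-fold without section 32. Of 7 compared replication genes, 4 (57.1%) were lower and 2 (28.6%) higher, against 28.9% and 21.6% of all genes, or 2 and 2 relative to myl7. Their median log2 ratio was -1.13 in the border, -0.96 in wound tissue and 0.05 beyond it. Summed leukocyte transcripts stood at 7013 CPM in the 3 dpi pool and 4025 CPM in the 7 dpi pool, and their part in the mitosis and replication values was not tested.

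Immediate early genes, which are switched on within minutes by stress and growth signals, were lower in 10 of 15 cases, 66.7% against 28.9% of all genes, and in 5 of 15 relative to myl7, against 15.3%. Sections were apart for 5 of the lower genes. FOS held 86.2, 158 and 227 CPM at 3 dpi and 0, 0 and 22.6 CPM at 7 dpi and was 8.45-fold lower at 7 dpi (95% interval 4.32 to 18.9). The zinc finger factor egr1 was 4.71-fold lower at 91.5 and 19.4 CPM, or 10.7-fold lower without section 32. BTG1, an antiproliferative gene, was 5.45-fold lower at 814 and 149.6 CPM, or 11.9-fold without section 32. JUNB, a partner of FOS in the AP-1 factor, was 3.32-fold higher at 7 dpi (95% interval 2.93 to 3.77), from 169, 349.6 and 742 CPM to 1006, 1021 and 1506 CPM. FOSL2, another AP-1 subunit, was 3.49-fold higher, with a ratio of 1.24 without section 32. The group's median log2 ratio was -1.29 in the border, -2.17 in wound tissue and -1.37 beyond it.

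Most genes of the translation machinery and the proteasome were within 2-fold. Of 68 ribosomal protein genes 58 were within 2-fold, 9 (13.2%) were lower and 1 (1.47%) higher, with a median log2 ratio of -0.59. Among all genes 28.9% were lower and 21.6% higher. Relative to myl7 the counts turned to 9 higher and 0 lower. On that scale 29.2% of all genes were higher and 15.3% lower, and the myl7 counts of the next groups stand against the same shares. RPL10A was 2.76-fold higher and RPS28 2.59-fold lower, the latter within 2-fold relative to myl7, at a ratio of 0.554. The elongation factor gene eef1a1l1 was 2.25-fold lower at 8954 and 3986 CPM, within 2-fold relative to myl7, and pabpc1a, for a poly(A)-binding protein, 3.16-fold higher at 1379.8 and 4359 CPM. Proteasome genes counted 1 (3.12%) higher, 7 (21.9%) lower and 24 within 2-fold, with a median log2 ratio of -0.39 that turned to 0.14 relative to myl7, where 5 were higher and 3 lower. The median was -0.09 in wound tissue and 0.45 beyond the border. PSMB8, the inducible catalytic subunit of the immunoproteasome, was 5.11-fold lower at 159 and 31.1 CPM. Of 30 translation factor genes, 5 (16.7%) were higher and 8 (26.7%) lower, near the shares of all genes. Their median of -0.16 turned to 0.36 relative to myl7, where 10 were higher and 2 lower.

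Chaperone genes were higher more often than lower: 7 of 19 (36.8%) against 3, beside 21.6% higher and 28.9% lower among all genes, with a median log2 ratio of 0.50. The median was 0.05 in wound tissue and 1.15 beyond the border. On the myl7 scale 10 were higher and 3 lower. HSPD1, the mitochondrial chaperonin, was 5.82-fold higher at 7 dpi (95% interval 4.62 to 7.38), from 59.3, 104 and 218 CPM to 447, 775 and 606 CPM. The cytosolic HSP90AA1 was 10.8-fold higher at 11 and 118 CPM, and calreticulin, CALR, of the endoplasmic reticulum 25.6-fold higher at 6.61 and 169 CPM, or 12.9-fold without section 32. Its lectin partner calnexin, CANX, was 6.92-fold lower at 67.2 and 9.71 CPM. All but CANX were also higher beyond the border, by 11.9-fold, 16.6-fold and 33.3-fold.

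None of the 23 compared leukocyte genes was at least 2-fold higher by CPM, and 1 was relative to myl7. The 11 lower ones made up 47.8%, against 28.9% of all genes, and 8 were lower relative to myl7. Sections were apart by CPM for 3 of the 23 compared genes, near the 12.0% of all genes that were lower in this way. The median log2 ratio was -0.91 in the border, -0.87 in wound tissue and -0.19 beyond it. HMOX1, which breaks down haem and is high in macrophages that take up red cells, held 128, 374 and 680.4 CPM at 3 dpi and 55.9, 12.3 and 7.54 CPM at 7 dpi. It was 33-fold lower at 7 dpi (95% interval 15 to 90.5), or 15-fold lower without section 32. At 3 dpi its high sections were those nearest the wound, as were those of all leukocyte transcripts. An MFAP4 gene (ENSDARG00000088745), of a family that marks zebrafish macrophages, was 11.1-fold lower, or 6.32-fold without section 32, and a second one (ENSDARG00000090783), named after its values were seen, 4.81-fold lower. The granulin gene grna.2 was 114-fold lower at 7 dpi (95% interval 31.4 to 947) on 2 counts at 7 dpi. It was 52-fold lower without section 32 and 213-fold lower without section 30, on 1 count each.

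The other 12 leukocyte genes were within 2-fold. CORO1A, an actin regulator of blood cells, had a ratio of 0.924 (95% interval 0.78 to 1.09), or 1.46 without section 32, and the cathepsin gene ctss2.2 one of 1.86 (95% interval 1.51 to 2.3), or 2.67 relative to myl7. The 10 listed leukocyte and macrophage markers matched 11 rows, which summed to 1311 to 4173 CPM per section at 3 dpi and 1124 to 1723 CPM at 7 dpi, and 1 of the rows, an MFAP4 gene, had no count at 7 dpi. Neutrophil markers were near 0 in both borders: 3 matched rows held 11 CPM in all at 3 dpi and 11.7 CPM at 7 dpi, with lyz and mmp13a at 0 at 7 dpi. Of 13 compared inflammation genes, 1 (7.69%) was higher and 5 (38.5%) lower, against 21.6% and 28.9% of all genes. Summed over 28 rows, however, their list was higher at 7 dpi, at 5395 CPM in the 3 dpi pool and 7676 CPM in the 7 dpi pool. The median log2 ratio was -0.26 and turned to 0.27 relative to myl7, where 5 were higher and 1 lower. It was -0.20 in wound tissue and 0.85 beyond the border. The wound chemokine gene CXCL12 was 3.31-fold higher at 7 dpi (95% interval 2.65 to 4.15) at 136 and 449 CPM, and the injury-induced inhibitor of metalloproteinases TIMP2 (ENSDARG00000075261) 3.29-fold lower at 7 dpi (95% interval 2.5 to 4.4) at 384 and 117 CPM. The ratio of that TIMP2 gene beyond the border was 1.81. The second TIMP2 gene (ENSDARG00000061226) did not share the lower level. Its ratio was 1.76, or 2.53 relative to myl7 and 0.68 without section 32.

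Vascular genes were led by cdh5, the adhesion molecule of endothelial junctions, at 9.28, 81.6 and 139 CPM in the 3 dpi and 950.3, 1366 and 684 CPM in the 7 dpi sections. It was 9.67-fold higher at 7 dpi (95% interval 7.56 to 12.5), or 14.8-fold higher without section 32, and 13.9-fold higher relative to myl7. The clotting factor carrier vwf was 5.98-fold higher at 7 dpi (95% interval 4.03 to 9.11) at 36.4 and 218 CPM, and CLDN5, a tight junction protein, 7.99-fold higher at 16.5 and 132 CPM, or 12.9-fold without section 32. In wound tissue vwf and CLDN5 stayed within 2-fold, at ratios of 0.568 and 1.36. In all, 4 of the 6 compared members were at least 2-fold higher at 7 dpi, 0 at least 2-fold lower and 2 within 2-fold, against 21.6% higher among all genes. Sections were apart for 2 of the higher ones, and the median log2 ratio was 2.49 in the border, 0.22 in wound tissue and 1.58 beyond it. Of the higher ones, vwf, CLDN5 and stab1 were under the count minimum at 3 dpi and entered through the 7 dpi pool only. Given the smaller 7 dpi pool, such genes had a higher CPM at 7 dpi by construction. Among the higher ones only cdh5 met the minimum in both pools, with 76 and 417 counts. The absence of lower genes and the border median thus follow in part from the count minimum.

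The listed endothelial markers did not move together. The receptor kinase TIE1 stood at 30.9 and 15.5 CPM, flt1 at 25.3 and 13.6 CPM and klf2a, a flow-responsive factor, at 52.9 and 36.9 CPM, each lower at 7 dpi and each under 50 counts in both pools. TIE1, flt1 and klf2a were thus not among the compared vascular genes. The summed marker level, 176 to 346 CPM per section at 3 dpi and 978 to 1563 CPM at 7 dpi, thus rested mainly on cdh5 in the 7 dpi pool, at 810.1 of 1094 CPM. How far the differences of vascular genes reflect the number of endothelial cells was not tested.

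Genes of the epicardium, the outer cell layer of the heart, were within 2-fold in 10 of 13 cases and higher in the other 3 (23.1%), close to the 21.6% of all genes. On the myl7 scale 7 of 13 were higher, against 29.2%. FSTL1, a secreted follistatin-like glycoprotein made by epicardium and muscle, went from 133, 241 and 408 CPM to 1537, 1427 and 2182 CPM and was 8.44-fold higher at 7 dpi (95% interval 7.28 to 9.81). The secreted chaperone clusterin, CLU, was 10.8-fold higher at 20.9 and 225 CPM. ALDH1A2, which makes retinoic acid in epicardium and endocardium, was 0.559 times its 3 dpi level, at 319.6 and 179 CPM, and 0.382 times with 3 dpi sections 11 to 13. The transcription factor markers TCF21 and TBX18 were under 50 counts in both pools, at 11 and 13.6 CPM and at 23.1 and 54.4 CPM, and wt1b had no count at 7 dpi.

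Many matrix genes were higher: 12 of 26 (46.2%) were at least 2-fold higher and 2 lower, against 21.6% and 28.9% of all genes, with a median log2 ratio of 0.95. Sections were apart for 6 of the higher ones, and on the myl7 scale 18 were higher. The median was 0.72 in wound tissue and 1.08 beyond the border. Fibronectin, FN1 (ENSDARG00000006526), the provisional matrix of the wound, went from 606, 719 and 1565 CPM to 4276, 3741 and 5569.5 CPM and was 6.36-fold higher at 7 dpi (95% interval 5.86 to 6.9). THBS1, thrombospondin, was 23.3-fold higher at 7 dpi (95% interval 12.3 to 49.6) at 11 and 256 CPM. The collagen cross-linking enzyme LOX was 15.6-fold higher at 13.2 and 206 CPM, and COL6A2, a chain of the pericellular collagen VI, 13.2-fold higher at 69.4 and 919 CPM. COL11A1, a minor fibrillar collagen, was 19.5-fold lower at 7 dpi (95% interval 6.48 to 96) on 3 counts at 7 dpi, or 6.64-fold without section 32 and 54.4-fold without section 30. The second FN1 gene (ENSDARG00000019815) stood at 409 and 472 CPM. The fibrillar collagen gene col1a1a was 5.53-fold higher at 538 and 2972 CPM, with a ratio of 1.72 without section 32. Other collagen I genes differed less: COL1A1 (ENSDARG00000035809) stood at 819 and 1010 CPM and COL1A2 at 602 and 1175 CPM. The second FN1 gene and these collagen I genes were named after their values were seen. Summed, matrix transcripts made up 3431 to 9253 CPM in the 3 dpi sections and 11823, 10422 and 17825 CPM in sections 30, 31 and 32.

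All 5 compared smooth muscle genes were at least 2-fold higher at 7 dpi, against 21.6% of all genes, and 2 of them had sections apart. The 2 MYL9 genes, for the regulatory light chain of smooth muscle and non-muscle myosin, did not overlap between sections: the gene with ID ENSDARG00000008030 went from 312, 606 and 982 CPM to 1677, 2289 and 1846 CPM and was 3.16-fold higher at 7 dpi (95% interval 2.85 to 3.52), and the other was 3.26-fold higher. Of the 2 TAGLN genes, for the actin cross-linker transgelin, ENSDARG00000033466 was 3.11-fold higher. The other was 3.32-fold higher, and the smooth muscle actin acta2 4.1-fold higher, but without section 32 their ratios were 1.7 and 1.12. MYH11, the smooth muscle myosin, was under 50 counts, at 6.61 and 19.4 CPM. The globin gene hbaa2 of red cells was 3.89-fold higher at 7 dpi (95% interval 3.23 to 4.7), from 111, 152 and 362 CPM to 950.3, 677 and 696 CPM, while in wound tissue and beyond the border its ratios were 0.926 and 1.61. The red cell carbonic anhydrase cahz was at 95.9 and 56.3 CPM, a ratio of 0.588, which was 0.891 without section 32 and 0.443, past 2-fold lower, with 3 dpi sections 11 to 13. Of 3 compared red cell genes, 1 was higher and 0 lower.

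**Figure D4:**
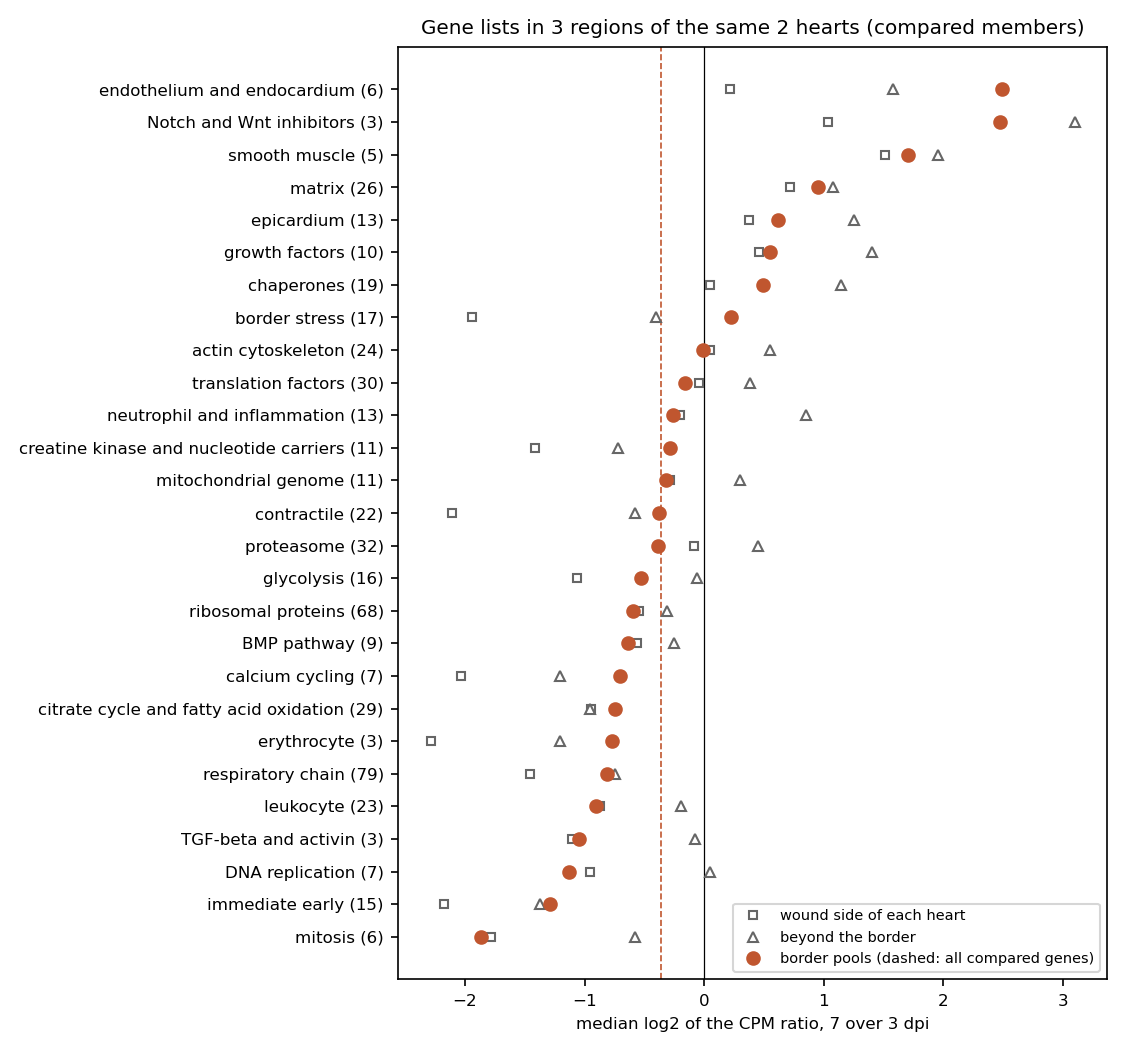
Median log2 ratio of pooled CPM, 7 over 3 dpi, of the compared members of 27 gene groups (number in parentheses) in the border pools (filled), on the wound side (squares) and beyond the border (triangles). The dashed line is the border median of all compared genes, -0.36: endothelium, smooth muscle and matrix lie to its right at 2.49, 1.71 and 0.95, and immediate early and mitosis genes to its left at -1.29 and -1.86. The endothelium median follows in part from the count minimum, since most of its higher genes entered through the 7 dpi pool only.

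Bone morphogenetic protein (BMP) signalling, named in the title of the study, was measured in 9 compared genes, of which 1 was higher, 1 lower and 7 within 2-fold. The shares of 11.1% each stand against 21.6% and 28.9% of all genes. Relative to myl7, 2 were higher and 1 lower. SMAD1, a transcription factor that BMP receptors phosphorylate, was 5.39-fold lower at 7 dpi (95% interval 2.81 to 11.6), from 37.1, 96.7 and 162 CPM to 0, 12.3 and 22.6 CPM, or 12.3-fold lower without section 32. Its ratio was 0.272 in wound tissue and 0.466 beyond the border. The BMP target ID1 held 90.7, 242 and 538 CPM and 139.8, 394 and 123 CPM, with overlap and a ratio of 0.614 (95% interval 0.474 to 0.787), which was 1.16 without section 32 and 0.458 without section 31, and id2b, another target, had a ratio of 0.621 (95% interval 0.47 to 0.811). With 3 dpi sections 11 to 13 the ratios of ID1 and id2b were 0.496 and 0.499, past 2-fold lower. The gene of the list that passed 2-fold upward was FSTL1, given above.

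Of other pathways, 5 of 10 compared growth factor and receptor genes were higher and 3 lower, against 21.6% and 28.9% of all genes, or 5 and 2 relative to myl7. The counts by CPM were 2 higher of 3 Notch and Wnt genes, 2 lower of 3 TGF-beta and activin genes and 1 higher of 2 retinoic acid genes. On the myl7 scale the TGF-beta and activin counts turned to 1 higher and 0 lower, and none of these genes had sections apart by CPM. The Notch and Wnt and the retinoic acid counts stayed at 2 and 1 higher. SFRP5, a secreted inhibitor of Wnt, went from 60.4, 81.6 and 139 CPM to 950.3, 1157 and 1189 CPM and was 12.9-fold higher at 7 dpi (95% interval 10.2 to 16.5). It was 2.05-fold higher in wound tissue and 25.8-fold beyond the border. LFNG, a glycosyltransferase that tunes Notch receptors, was 5.55-fold higher at 7 dpi (95% interval 4.51 to 6.87) at 133 and 740.2 CPM. The retinoid receptor gene rxrbb was 15.3-fold higher at 39.7 and 606 CPM. The heparin-binding growth factor hbegfa was 4.76-fold lower at 92.6 and 19.4 CPM, or 2.71-fold without section 32. EGFR, the receptor of that ligand, was 5.29-fold higher at 19.8 and 105 CPM, and igf2b, an insulin-like growth factor, 2.38-fold higher at 132 and 315 CPM. Neuregulin and its receptors had no member among the compared genes.

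Cytoskeletal genes of moving and dividing cells split, with 7 of 24 (29.2%) higher and 4 (16.7%) lower, against 21.6% and 28.9% of all genes. Their median log2 ratio was -0.01, or 0.52 relative to myl7, where 9 were higher and 2 lower. The non-muscle light chain myl6 was 10.2-fold higher at 7 dpi (95% interval 8.56 to 12.3), from 94.9, 135 and 268 CPM to 1034, 1230.5 and 1783 CPM, and moesin, MSN, which ties actin to the membrane, 3.62-fold higher at 7 dpi (95% interval 3.3 to 3.97). The cross-linker ACTN1 was 5.12-fold higher at 46.3 and 237 CPM. ARPC1B, of the Arp2/3 complex and prominent in leukocytes, was 9.17-fold lower, or 4.17-fold without section 32 and 15.4-fold without section 31. Cytoplasmic actin actb2 was within 2-fold at 10833 and 11143 CPM, with a ratio of 1.03, or 0.629 without section 32.

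The genes that separated the pools most clearly, by the bound of the interval nearest 1, included several that differed over 10-fold in all 3 regions. F13A1, the transglutaminase subunit of clotting factor XIII, had 1 count at 3 dpi and 978 at 7 dpi, a ratio of 1724 (95% interval 309 to 68159.9). Its ratio was 1355 in wound tissue and 858 beyond the border. RIPOR2 was 62.7-fold higher, STK35 46.6-fold higher, UQCC6, an assembly factor of complex III, 25.3-fold higher, the glutathione transferase GSTM3 (ENSDARG00000029473) 22.9-fold higher, capns1b, a calpain small subunit, 19.2-fold higher and ABI1, an actin regulator, 18.9-fold higher, and their ratios were between 16 and 104 in wound tissue and between 22.9 and 42 beyond the border. Of these, RIPOR2 moved by more than 1.5 times without 3 dpi section 18, and STK35 and UQCC6 without section 32, to ratios of 191, 77 and 39.8. Without 3 dpi section 16 F13A1, with no count left at 3 dpi, was at least 484-fold higher. On the lower side the Golgi membrane protein gene golm1, with 127 counts at 3 dpi and 1 at 7 dpi, was 72-fold lower at 7 dpi (95% interval 12.7 to 2868). RAB14, a GTPase of Golgi and endosomes, with 111 counts and 1, was 63-fold lower at 7 dpi (95% interval 11.1 to 2509). Without section 32 golm1 was 16.4-fold lower and RAB14, with no count left, at least 4.77-fold lower. Without section 31 golm1, also with no count left, was at least 20.2-fold lower. RRAD, a small GTPase that restrains the L-type calcium channel, was 11-fold lower at 7 dpi (95% interval 5.65 to 24.4). The retinol dehydrogenase RDH14 was 52.8-fold lower at 7 dpi (95% interval 9.24 to 2106) and the phosphomannomutase PMM2 19.1-fold lower at 7 dpi (95% interval 6.35 to 94.2), on 1 and 3 counts at 7 dpi. Without section 32 RDH14 was 12-fold lower, and without section 31, with no count left, at least 14.8-fold lower. In wound tissue the ratios of RDH14 and PMM2 were 0.73 and 0.46.

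Some genes sat at the 2-fold limit. Just inside it were SH3BGRL and h2ax, 2.01-fold higher and 2.02-fold higher, and just outside si:ch211-5k11.8 and OLFML3, at ratios of 1.996 and 1.998. On the lower side TRPV4 and EIF4B were just inside, at 0.499 and 0.499, and TXN2 and fam32a just outside, at 0.501 and 0.501. Without section 32 the ratio of h2ax was 1.16 and those of TRPV4, EIF4B and TXN2 0.146, 0.517 and 0.245. No compared gene had 0 counts at 3 dpi. At 7 dpi 4 had none, among them IK and creb1a, which at a floor of 3 counts over the pool were at least 10.6-fold and 10.02-fold lower, or at least 2.41-fold and 2.28-fold without section 32.

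Setting the border against the muscle beyond it within each heart sets aside a factor shared by both regions of a heart. The border level over the level beyond it was at least 2-fold higher at 7 than at 3 dpi for 123 genes (6.48%) and at least 2-fold lower for 358 (18.9%). For nppb the border stood 3.19-fold above the muscle beyond it at 3 dpi, at 1303 against 408 CPM. At 7 dpi it stood at 0.668 times the level beyond it, at 190.4 against 285 CPM. At 7 dpi nppb thus did not mark the border pool against the muscle beyond it. MUSTN1 went from 1.88 to 0.794 times the level beyond the border. ANKRD1 went from 15.9 to 1.78 times, although its border level was higher at 7 dpi, its level beyond the border being 1.46 CPM at 3 dpi and 57.8 CPM at 7 dpi. CDK1 went from 2.88 to 1.09, plk1 from 4.98 to 1.98, and PCNA, higher in the 7 dpi border, from 2.12 to 0.80.

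On this measure 4 of 6 mitosis genes, 5 of 7 replication genes, 9 of 23 leukocyte genes and 16 of 32 proteasome genes were at least 2-fold lower at 7 dpi, against 18.9% of all genes. None of those 4 groups had a member at least 2-fold higher. The compared mitosis genes had entered through the 3 dpi border pool only. Other groups went the same way, among them chaperones with 7 of 19 lower, inflammation and epicardium with 5 of 13 each and growth factors with 3 of 10, none higher. Some had more higher than lower, among them citrate cycle and fatty acid genes with 3 and 1 of 29. Respiratory chain genes, lower by CPM, were nearly all within 2-fold here, with 3 lower and 1 higher of 79. MYBPC3 went from 0.627 to 1.18 times the level beyond the border, cdh5 from 0.965 to 1.41, FSTL1 from 1.67 to 1.38 and NDUFB9 from 0.857 to 0.668. The smooth muscle actin acta2 went from 1.15 to 6.23. The 7 dpi value rests on section 32, since acta2 held 55.9, 123 and 455 CPM in sections 30, 31 and 32. The muscle beyond the border is 21 sections at 3 dpi and the single section 34 at 7 dpi, whose leukocyte transcripts came to 2417 and 2545 CPM.

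**Figure D5:**
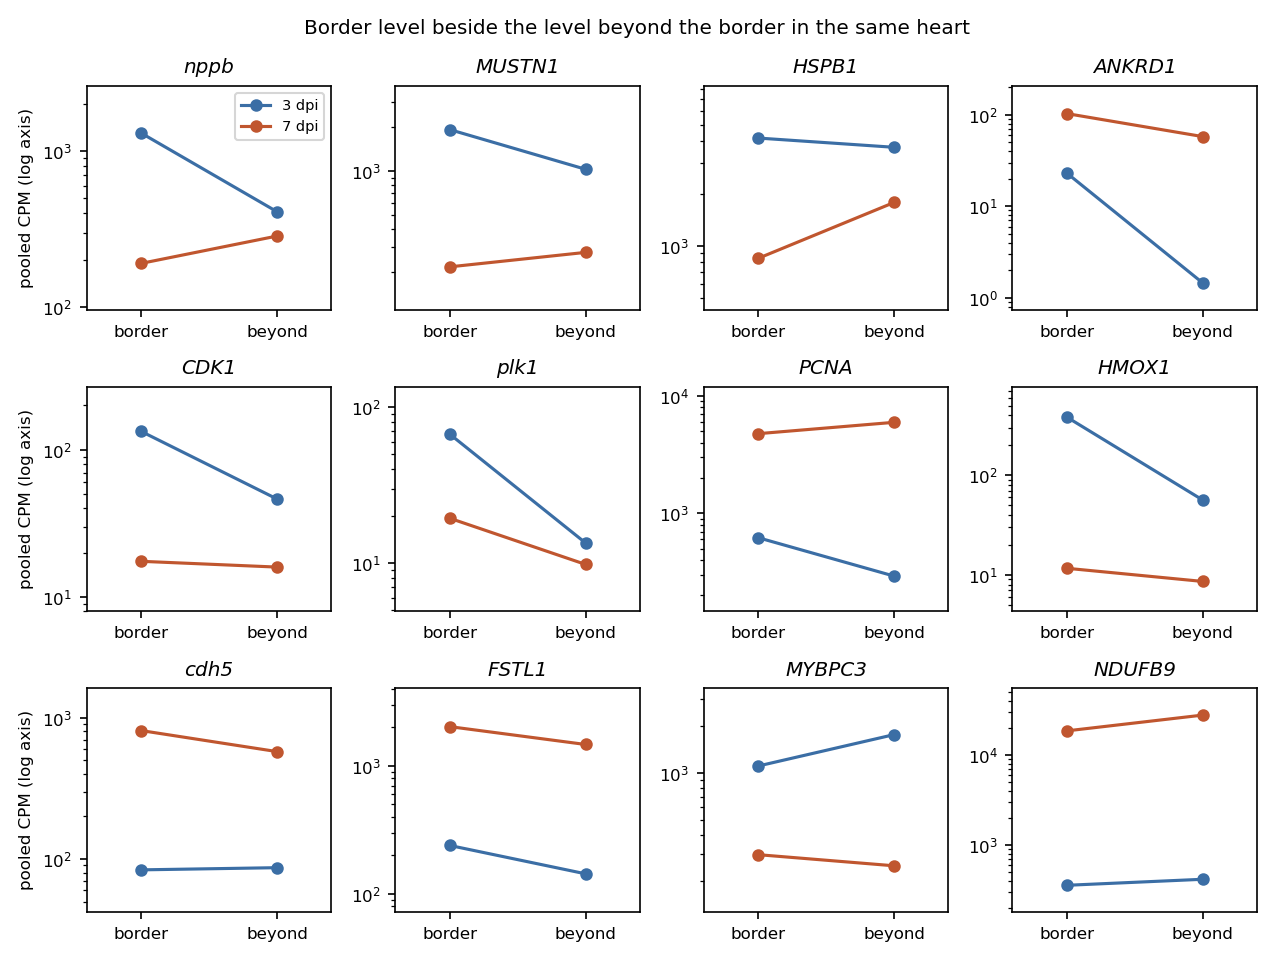
Pooled CPM (log axis) of 12 genes in the border and in the muscle beyond it, joined within each heart (3 dpi blue, 7 dpi orange). The nppb line slopes down from the border to the muscle beyond it at 3 dpi, from 1303 to 408 CPM. At 7 dpi, where the muscle beyond is section 34 alone, it slopes up, from 190.4 to 285 CPM. For NDUFB9 the lines of both hearts run side by side.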

How the data were processed

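Messenger RNA of single cryosections was measured by CEL-seq, per the labels' protocols, in 1 ventricle at 3 dpi (40 sections) and 1 at 7 dpi (38 sections). The deposited values are whole-number counts per gene and section, with no normalization by the authors recorded. They were checked to be whole and at least 0, and since the columns carry bare section numbers their unit was recorded as other. BWA 0.6.2 is named in the submitters' processing notes. The genome build, the annotation and the treatment of duplicate or molecular barcodes are not given in the sources used here.

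Spike-in rows were left out. Counts were summed per pool, scaled to CPM and compared as ratios, with Python 3.11.15, pandas 2.3.3 and SciPy 1.17.1. No pseudocount was added. A pool at 0 counts was set to 3 counts. Sections of very low total (under 20% of the 75th percentile of their heart) were left out of the pools of wound tissue and of muscle beyond the border. The interval calculation was tested on simulated data. Gene IDs were matched to symbols through a table of IDs and names, and 0 columns of other samples were present.

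A difference was called at 2-fold, with no test and no p-value, because each day is 1 heart. Genes named were myl7 and nppb, members at both ends of each of 28 gene lists (up to 4 each), the 15 genes in each direction with non-overlapping sections whose interval lay farthest from 1, the 10 named genes of highest CPM in each pool, and genes just inside and outside the limit. Other genes named were chosen after their values were seen or are listed cell-type markers. The sections, the genes and the lists were chosen with earlier results of these data known. Alternatives were other scalings, ways of pooling, count minimums, an added 10 CPM, other sections and each section left out. No sequence is given.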

Additional observations from a re-analysis of the deposited data

How the results depend on the processing

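Both counts of called genes, 410 higher and 549 lower, stayed within 1.5 times under the other ways of scaling, pooling and choosing sections, with 3 kinds of exception. Relative to myl7, 290 were lower. With at least 20 counts in 1 pool, which lets in more genes, 847 were higher and 1245 lower. With at least 100 counts 247 were higher and 280 lower, from fewer genes compared. Leaving out 1 section at a time gave 407 to 421 higher and 532 to 622 lower. Without section 32, 352 of the 410 and 416 of the 549 were called again and 22 called genes had the other sign. Leaving the highest-count ID of each heart out of the totals gave 385 and 632. One such ID, ENSDARG00000080337, held 18% of the 3 dpi and 5.84% of the 7 dpi border counts and has no name in the table. Sections 11 to 13 were tried after the data were seen and gave 415 and 590. The log2 ratio of ACTA1 (ENSDARG00000055618) turned to -0.14 with the median of section CPM and ranged from -0.41 without section 32 to 1.25 without section 31. That of PDLIM3 ranged from -0.215 without section 32 to 1.77 without 3 dpi section 14, and that of RPA3 from -2.031 without section 31 to 0.147 without section 32. The median of TGF-beta and activin genes, -1.05, was 0.586 at a minimum of 20 counts, where more of its genes were compared. The cause of the other reversals was not tested. No paired analysis was possible because each day holds 1 heart. With 77.3% of the 7 dpi counts in section 32, low genes are limited by the depth of sections 30 and 31.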
